A study of Danio rerio with 36 samples.

Results

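Heat shock and chaperone genes encode proteins that help other proteins fold, keep them from aggregating and carry them across membranes. The set described here holds the 87 genes, of 14781 counted, whose symbols begin with hsp, dnaja, dnajb, dnajc, bag1 to bag6, hsf or cct2 to cct8, together with tcp1 and without hspg2, which encodes a matrix proteoglycan. The rule reads symbols alone, and the set was chosen with earlier results of these data known. By the known role of the human orthologue, 28 are cytosolic chaperones, 9 are mitochondrial, 14 belong to the endoplasmic reticulum (ER), 4 are heat shock transcription factors and 32 are other co-chaperones. Of the 87, 80 were tested in at least 1 comparison. The other 7 did not pass the expression filter anywhere: hspb2, hspb3, hspb15 and hsf4 had few counts, and cct2, dnaja3b and hsf5 are listed at 0 counts in all 18 libraries.

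The series followed regrowth of the zebrafish caudal fin after amputation by RNA-seq. Whole fins came from the outbred Ekkwill (EK) strain, aged 4 to 12 months by the growth protocol and 3 to 12 by the extraction protocol, kept in water at 27.5 °C, with 15 fish in a pool. Batch 1 held uninjured whole fins (0 days post amputation, dpa, n = 2) and whole fins at 4 dpa (n = 2), all wild type. Batch 2 held wild-type whole fins labelled 0 dpa (n = 3) and labelled 1 dpa (n = 3). For batch 2 the deposited names give the groups the other way round, so they are called labelled 0 dpa and labelled 1 dpa. In batch 3, fibroblasts had been sorted from fins at 0 dpa (n = 2) and 4 dpa (n = 2), and each library stands for a pool of 75 fin samples. That batch also has 4 single whole-fin libraries, 1 at 0 dpa and 1 at 2 dpa from wild-type fish and the same from fish with a LEN deletion. LEN is an enhancer linked to the leptin gene lepb, and whether the deletion was on both chromosomes is not given in the sources used here. The fibroblasts were marked through a transgene with the promoter of tph1b. The growth protocol names it as Tg(tph1b:mCherry-NTR;ubi:switch) and the treatment protocol as Tg(tph1b:creER;ubi:switch). The latter adds a first clip with 4 µM tamoxifen for 12 hours at 2 dpa and full regrowth before pooling, so fibroblasts labelled 0 dpa come from fins that had regenerated once. Cells were sorted for mCherry. Dissociation with Liberase at 37 °C for 2 hours is described in the accessibility part of the protocol, while the series' design text gives enzymatic dissociation for both assays.

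In the cytosol, HSP70 proteins bind unfolded stretches with the help of J-domain proteins, and nucleotide exchange factors such as the HSP110 and BAG proteins release the client again. HSP90 acts later on near-native clients, small heat shock proteins hold denatured proteins in solution, and the CCT ring folds actin and tubulin. Some of these genes are active in every cell, while others are switched on by heat shock factor 1 when proteins unfold. The ER and the mitochondrial matrix have their own sets, and the ER set is induced when secretory load rises. In zebrafish, loss of hspd1 function is known to block formation of the blastema, the growth zone of the regenerating fin.

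Gene counts per library ranged from 19427984 to 43871436. Levels are CPM, gene counts divided by library size, scaled with TMM factors over all libraries. They are compared across libraries, for 1 gene or for a sum of genes. Gene lengths were not used, so a rank or share among genes or classes compares counts, not numbers of transcripts. Differences are log2 fold changes with standard errors (SE) from edgeR's quasi-likelihood test, called at a Benjamini-Hochberg adjusted p under 0.05 over all genes tested. Libraries of a group are separate pools of fish. All 10 tested fibroblast markers were higher in the uninjured sorted cells than in uninjured whole fins of the same batch, against 31.9% of all genes. In the sorted cells tph1b itself was at 5.70 and 6.57 CPM at 0 dpa and 203 and 203 CPM at 4 dpa. Among these markers fbln1 is listed at 0 in every library. Osteoblast markers were also higher there in 6 of 7 (median 1.79), and 1 was lower. They summed to 2173 and 2344 CPM in uninjured sorted cells and 708 and 572 CPM in those whole fins. Epidermal markers were not at 0 in the sorted cells: their 13 genes summed to 46662 and 24024 CPM at 0 dpa and 7961 and 7620 CPM at 4 dpa, against 53757 to 211351 CPM in whole fins. In these bulk samples, fewer cells of a type and less RNA per cell cannot be told apart.

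The largest feature of the set was the level in the sorted fibroblasts. In whole fins the 87 genes took 1.13 to 1.93% of all gene counts. In the fibroblasts they took 10.1 and 13.1% at 0 dpa and 4.78 and 4.73% at 4 dpa. The cytosolic class made up most of this: it summed to 104437 and 143950 CPM in the uninjured fibroblasts, 29816 and 30644 CPM at 4 dpa and 9729 to 15359 CPM in whole fins. Co-chaperones summed to 12523 and 14682 CPM, then 3947 and 3637 CPM, against 938 to 1479 CPM in whole fins. The ER class did not follow that order: its fibroblast groups overlapped, with 5608 and 8729 CPM at 0 dpa and 8464 and 10910 CPM at 4 dpa, and both lay above the 656 to 3225 CPM of whole fins. Of the 84 members with any count, 52 had their highest level in a fibroblast library, and the share over all genes was not computed.

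**Figure D1:**
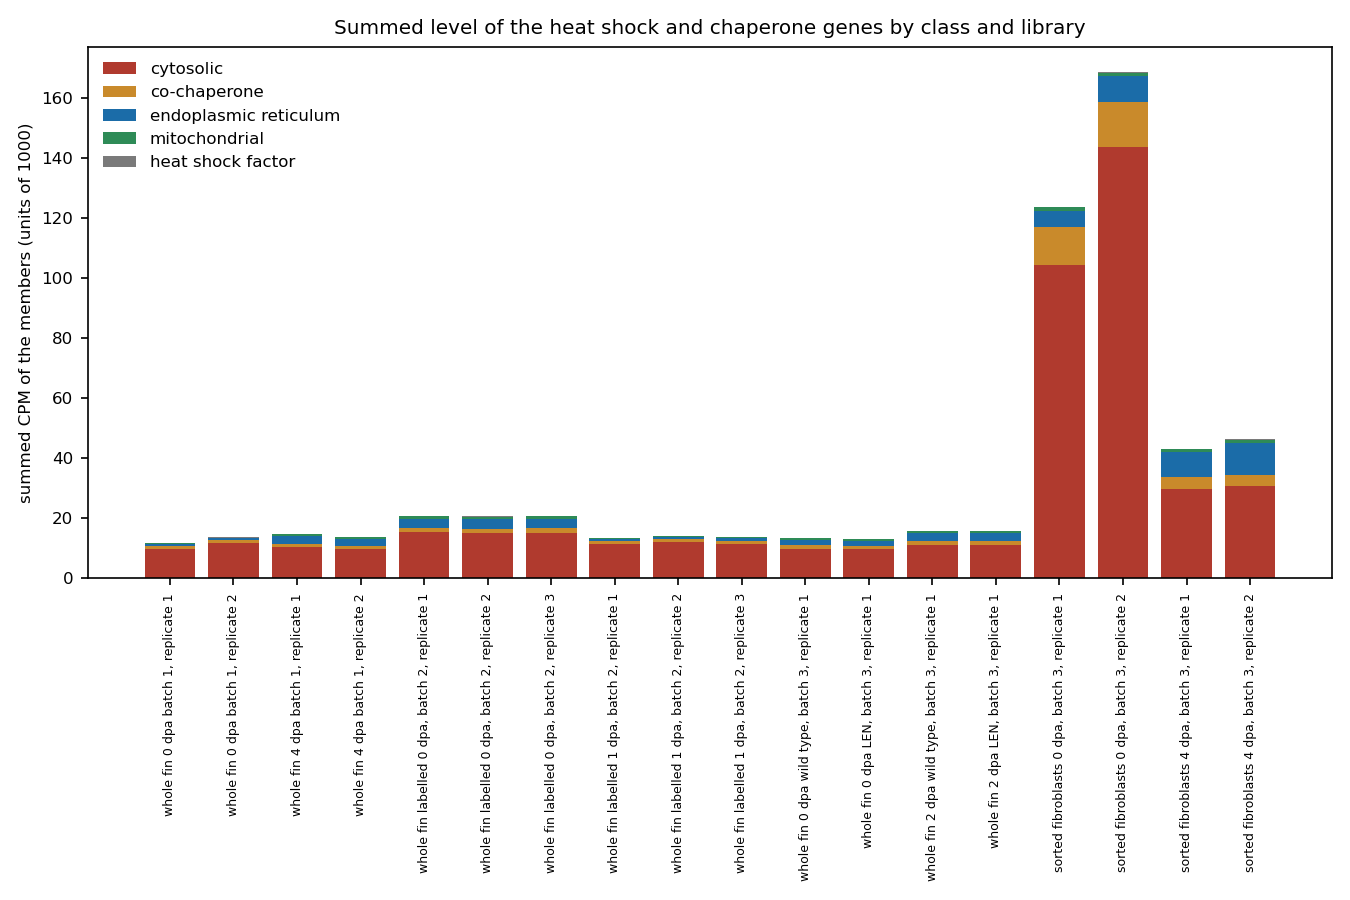
Summed CPM (in units of 1000) of the members of each class, stacked, for each of the 18 libraries. Both uninjured fibroblast libraries stand above all others, the fibroblasts at 4 dpa come next, and the cytosolic class is the largest part in every library.

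Counts of called members are given here against the share of all tested genes called the same way. In batch 1 whole fins at 4 against 0 dpa, 35 of 77 tested members were higher and 15 lower, with a median log2 fold change of 0.30. Of all genes tested there, 32.5% were higher and 33% lower, so the members had more higher and fewer lower calls than the background share. In sorted fibroblasts at 4 against 0 dpa, 22 of 80 were higher and 27 lower, against 27.8% and 26.2% of all genes, and the members' median was -0.10. That share of higher calls is near the background. In batch 2, labelled 1 against labelled 0 dpa, 17 of 78 were higher and 47 lower, against 42% and 39.9% of all genes, with a median of -0.57.

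Uninjured fibroblasts were also compared with uninjured whole fins of batch 3, taking the wild-type and the LEN library as 2 libraries of a group. There 41 of 79 members were higher in the fibroblasts and 16 lower, against 31.9% and 31% of all genes, and the median was 0.78. At 4 dpa, fibroblasts of batch 3 against whole fins of batch 1 gave 45 higher and 20 lower of 79, against 36.8% and 38.5%. In both, the higher calls exceeded the background share. The difference of the responses (4 minus 0 dpa in fibroblasts, minus the same in batch 1 whole fins) was called above 0 for 6 of 80 members and below 0 for 24, against 18.9% and 17.4% of all genes. In whole fins of batch 3 at 2 against 0 dpa, with genotype as a block and 1 residual degree of freedom, 26 of 78 were higher and 15 lower, against 31.2% and 31.1%. For LEN deletion against wild type no member was called in either direction, against 0.219% and 0.185% of all genes.

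Among the cytosolic members, the heat-inducible HSP70 genes differed most. hsp70.1, a gene switched on by heat and by unfolded protein, was at 44730 and 65482 CPM in the uninjured fibroblasts and at 8530 and 7636 CPM at 4 dpa. All 14 whole-fin libraries ranged from 2.16 to 28.0 CPM, on 51 to 887 counts. In the uninjured fibroblasts it had more counts than any other gene and took 3.67 and 5.08% of them. Against uninjured whole fins of its batch, the log2 fold change was 13.54, SE 0.44, edgeR adjusted p = 7.94e-05. From 0 to 4 dpa it fell in the fibroblasts (-2.67, SE 0.27, edgeR adjusted p = 3.56e-05), while in batch 1 whole fins, at 3.28 and 2.32 CPM before and 2.57 and 2.16 CPM after, the change was not called (-0.34, SE 0.25, edgeR adjusted p = 0.259). The comparison with uninjured whole fins and the change to 4 dpa share the uninjured fibroblast libraries.

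The related gene hsp70l was at 26676 and 37920 CPM in uninjured fibroblasts, 7090 and 6278 CPM at 4 dpa and 1.35 to 12.0 CPM in whole fins. The fibroblast groups did not overlap with each other or with any whole fin. Its log2 fold change was 13.02 against uninjured whole fins and -2.17 from 0 to 4 dpa in fibroblasts. It also fell in batch 1 whole fins (-2.00, SE 0.24, edgeR adjusted p = 8.23e-05), from 5.40 and 6.68 to 1.92 and 1.35 CPM, and the difference of these responses was not called (-0.14, SE 0.39, edgeR adjusted p = 0.81). Further copies of hsp70.1 lie beside it in the RefSeq gene table of the assembly GRCz12tu and were not analysed here. The split between these genes is uncertain, since how shared reads were counted is not given in the sources used here.

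HSP90 has an inducible and a constitutive side. hsp90aa1.2 was at 18828 and 25374 CPM in uninjured fibroblasts, 4163 and 5079 CPM at 4 dpa and 11.3 to 40.2 CPM in whole fins. Its neighbour on the chromosome, hsp90aa1.1, was at 526 and 731 CPM, then 121 and 150 CPM, and at 0.635 to 1.91 CPM in whole fins. Both were higher in the fibroblasts at 0 dpa (log2 fold changes 9.71 and 8.47), and both fell there by 4 dpa (-2.16 and -2.12). Constitutive hsp90ab1, which serves kinases and steroid receptors in every cell, went the other way. It was at 1702 and 1809 CPM in uninjured fibroblasts and 4360 and 4696 CPM in the uninjured whole fins of the batch (-1.37, SE 0.15, edgeR adjusted p = 0.000797). In batch 1 it fell from 5235 and 6560 CPM to 3803 and 3536 CPM (-0.79, SE 0.23, edgeR adjusted p = 0.0123). Without either of the 4 dpa libraries that fall was no longer called, and scaled by library size only it was -0.33.

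The constitutive HSP70 gene hspa8 varied far less than its inducible relatives. It was at 2028 and 2020 CPM in batch 1 at 0 dpa and at 3345 and 3274 CPM at 4 dpa. In the fibroblasts it was at 4407 and 4330 CPM, then 3485 and 4032 CPM. Batch 1 rose (0.60, SE 0.19, edgeR adjusted p = 0.0205), and the fibroblasts gave no call (-0.12, SE 0.18, edgeR adjusted p = 0.591). The rise in batch 1 was not called without either 4 dpa library. Uninjured fibroblasts were called higher than whole fins of the batch by 0.52, but not without either whole-fin library, and the value was -0.029 under scaling by library size only.

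The other HSP70 relatives split. hspa4a, an HSP110 exchange factor, was at 4529 and 4730 CPM in uninjured fibroblasts and 1617 and 2014 CPM at 4 dpa, with 139 and 102 CPM in the uninjured whole fins of the batch. In batch 1 it rose from 38.8 and 31.9 to 135 and 121 CPM (1.75, SE 0.13, edgeR adjusted p = 4.68e-06), whereas in the fibroblasts it fell (-1.26, SE 0.19, edgeR adjusted p = 0.000377). Its paralogue hspa4b did not share this: it was lower in uninjured fibroblasts than in whole fins (-1.29, SE 0.16) and rose by 4 dpa in both (0.93 in batch 1, 1.27 in fibroblasts). hspa14, a ribosome-associated HSP70 relative, likewise rose in both (0.42 and 0.80). hspa12b, a distant HSP70 relative, fell in fibroblasts from 67.8 and 59.3 to 10.5 and 9.46 CPM (-2.57, SE 0.17) and rose in batch 1 from 8.36 and 7.22 to 15.8 and 17.4 CPM (0.99, SE 0.15). hspa12a fell in fibroblasts (-1.36) and was not called in batch 1 (-0.15).

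**Figure D2:**
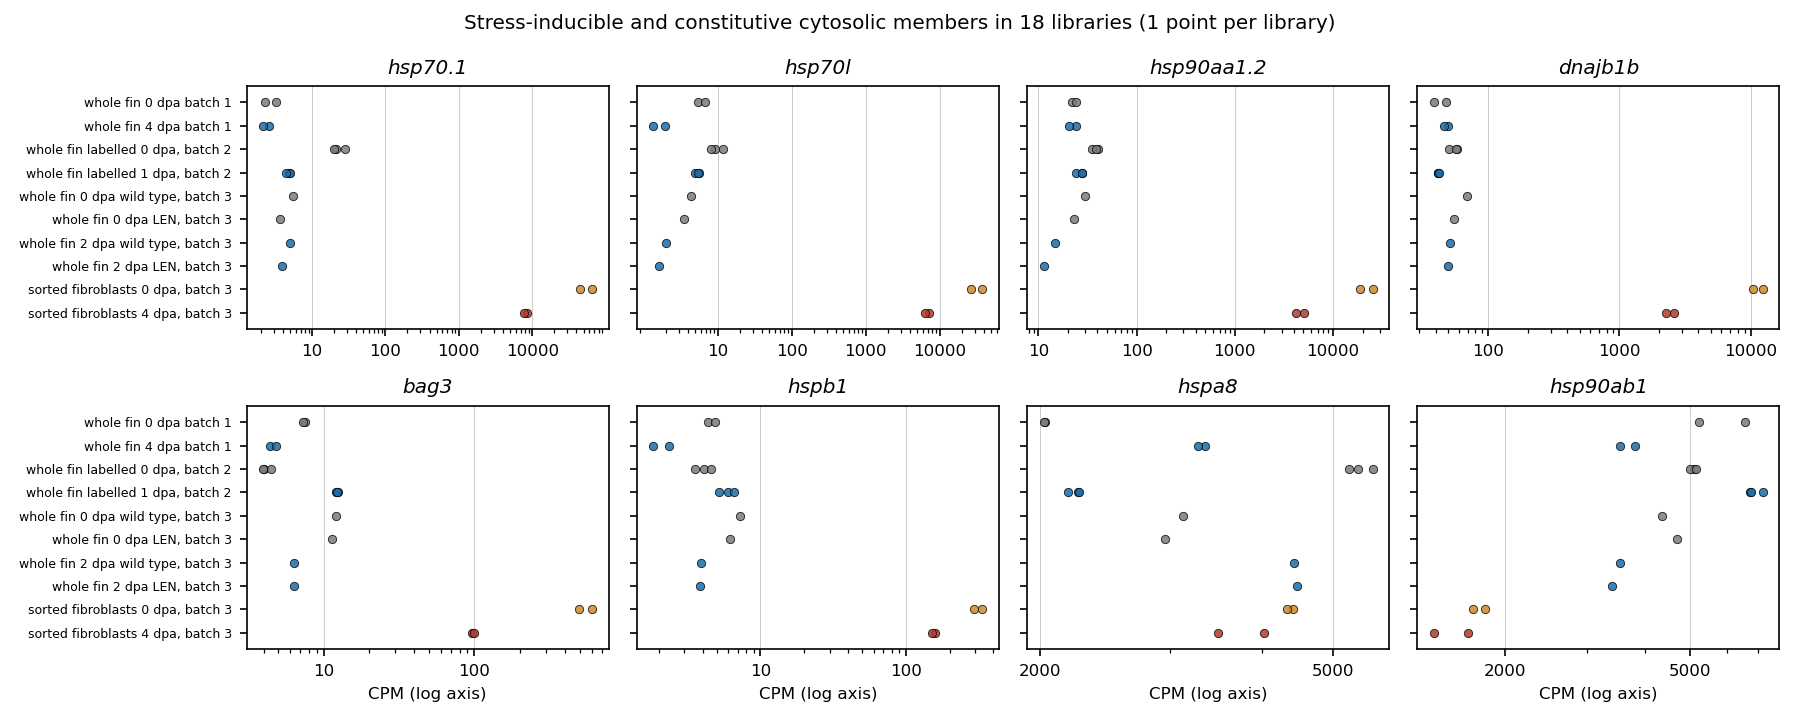
CPM (log axis) of 8 cytosolic members and co-chaperones, 1 point per library, with uninjured or labelled 0 dpa whole fins in grey, regenerating or labelled 1 dpa whole fins in blue, and fibroblasts in orange (0 dpa) and red (4 dpa). For hsp70.1, hsp70l, hsp90aa1.2, dnajb1b, bag3 and hspb1 all 4 fibroblast libraries lie above every whole fin, for hsp90ab1 all 4 lie below, and for hspa8 they lie among the whole fins.

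Of the co-chaperones, some had the same order of groups and others did not. In uninjured fibroblasts 13 of the 32 were higher than in whole fins of the batch and 7 lower. Of all genes, 31.9% were higher and 31% lower. Among the 6 BAG genes 1 was higher and 1 lower. The 3 described next were among the higher ones. dnajb1b, the J-domain partner that delivers unfolded proteins to HSP70 under stress, was at 10372 and 12419 CPM in uninjured fibroblasts, 2631 and 2275 CPM at 4 dpa and 38.7 to 69.4 CPM in whole fins. The scaffold and exchange factor bag3 was at 499 and 606 CPM, then 97.2 and 99.4 CPM, against 3.96 to 12.5 CPM. The exchange factor hspbp1 was at 342 and 321 CPM, then 157 and 147 CPM, against 5.78 to 18.8 CPM. In none of these did a fibroblast library overlap with a whole fin. The log2 fold changes against uninjured whole fins were 7.51 for dnajb1b, 5.55 for bag3 and 4.91 for hspbp1, with SEs of 0.18 to 0.24. All 3 fell from 0 to 4 dpa in fibroblasts (-2.12, -2.39 and -1.03). In batch 1 whole fins bag3 fell as well (-0.78, SE 0.17, edgeR adjusted p = 0.00299), a call lost under scaling by library size only, while dnajb1b and hspbp1 were not called (0.04 and 0.34).

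Further J-domain genes were also higher in the uninjured fibroblasts. dnajb5 was at 37.8 and 38.1 CPM in uninjured fibroblasts, 17.0 and 15.2 CPM at 4 dpa and at most 1.48 CPM in whole fins. dnajb4 was at 88.4 and 107 CPM and then 7.17 and 7.34 CPM, the steepest fall of any member in the fibroblasts (-3.66, SE 0.18, edgeR adjusted p = 1.07e-06). At 4 dpa its fibroblast level lay within the range of the 14 whole fins, 3.31 to 8.38 CPM. dnajb13, a gene of sperm and cilia in mammals, was at 7.84 and 15.2 CPM in uninjured fibroblasts and under 1 CPM in every whole fin. dnaja1 was also higher in uninjured fibroblasts (2.07), as were dnajb1a (2.11) and dnajb2 (2.84). Of the 24 J-domain genes among the co-chaperones, 11 were higher there and 6 lower, against 31.9% and 31% of all genes.

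Small heat shock proteins hold damaged proteins until HSP70 can act. hspb1 was at 293 and 336 CPM in uninjured fibroblasts, 159 and 152 CPM at 4 dpa and 1.83 to 7.27 CPM in whole fins. It fell by 4 dpa both in batch 1 (-1.26, SE 0.22, edgeR adjusted p = 0.000903) and in fibroblasts (-0.92, SE 0.15, edgeR adjusted p = 0.000687). hspb8, a partner of bag3, took another course. It rose in fibroblasts from 31.3 and 34.4 to 45.6 and 51.4 CPM (0.66, SE 0.15, edgeR adjusted p = 0.00503), in batch 1 from 3.02 and 1.73 to 5.79 and 5.87 CPM (1.21, SE 0.26, edgeR adjusted p = 0.00245), and in batch 3 whole fins from 4.54 and 4.46 to 25.4 and 20.2 CPM at 2 dpa (2.31, SE 0.16, edgeR adjusted p = 5.33e-07). hspb7, a muscle and heart small heat shock protein, rose in batch 1 from 0.741 and 0.772 to 3.76 and 3.99 CPM (2.24) and fell in fibroblasts from 6.93 and 9.81 to 4.13 and 4.12 CPM (-0.92). Without either 4 dpa fibroblast library the latter fall and, without the replicate 2 library, the rise of hspb8 in fibroblasts were not called. hspb6 was at 7.15 and 8.78 CPM in uninjured fibroblasts and 1.06 and 1.22 CPM at 4 dpa, within the 0.363 to 1.96 CPM of whole fins. hspb11 fell in fibroblasts from 12.9 and 12.5 to 4.53 and 2.80 CPM, and hspb9 was not called where it was tested (-0.52 in fibroblasts).

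Of the 79 members compared between uninjured fibroblasts and whole fins, 11 were more than 4 log2 units higher in the fibroblasts, from hspbp1 at 4.91 to hsp70.1 at 13.54. The share of all genes beyond 4 log2 units was not computed. At 2-fold or more in either direction, 43 of the 79 members and 5696 of all 12127 genes were called. Cell source, transgene, tamoxifen, the earlier clip with regrowth and sorting differ together between the fibroblasts and these whole fins and cannot be told apart. Whether dissociation differed as well is not settled by the protocols. Immediate early genes, most of which respond within minutes to many stimuli, stood beside these 11 members. Of 35 tested, 33 were higher in the uninjured fibroblasts (median 3.99) and 30 of 35 fell by 4 dpa. The shares of all genes were 31.9% and 26.2%. In batch 1 whole fins hsp70.1, both hsp90aa1 genes, dnajb1b and hspbp1 were not called, while hsp70l, hspb1 and bag3 fell and hspa4a rose. There 28 of 34 immediate early genes fell by 4 dpa (median -1.86) and 4 rose. Of all genes there, 33% fell and 32.5% rose. The 36 immediate early genes counted summed to 72668 and 84804 CPM in fibroblasts at 0 dpa, 19551 and 17286 CPM at 4 dpa and 2765 to 12476 CPM in whole fins. Their part in the chaperone result was not tested. With batch 1 whole fins at 0 dpa as the controls, hsp70.1 stood at 14.20, hsp90aa1.2 at 9.82 and dnajb1b at 7.96. Lower calls numbered 16, but 28 when scaled by library size only. Without the wild-type whole-fin library, fewer members and fewer of all genes were called lower. Scaling by library size only moved the median of all genes to -0.57 and the share of higher calls among all calls from 50.7% to 31.7%.

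The excess over whole fins was still present at 4 dpa. Against batch 1 whole fins at 4 dpa, the fibroblasts were higher in hsp70l (12.02, SE 0.21), hsp70.1 (11.76, SE 0.19), hsp90aa1.2 (7.71, SE 0.17) and hsp90aa1.1 (7.42, SE 0.18). hspb1 (6.25, SE 0.15) and dnajb1b (5.70, SE 0.14) followed. dnajc25 (-2.03), dnajc5gb (-1.70), hsp90ab1 (-1.24) and cct8 (-1.06) were the lowest called members with at least 5 CPM, and bag6, which guides tail-anchored membrane proteins, and the import-motor subunit dnajc19 (-0.75) were also lower. Batch, cell source, transgene, sorting, tamoxifen and the earlier clip with regrowth differ together in this comparison and cannot be told apart. The comparison shares its libraries with both 4 dpa responses.

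All 3 ER chaperones and 5 of the 11 ER J-domain genes rose by 4 dpa in batch 1 whole fins. hspa5 (BiP), the HSP70 of the ER, was at 310 and 217 CPM in uninjured fins of batch 1 and 1028 and 853 CPM at 4 dpa (1.73, SE 0.20, edgeR adjusted p = 6.71e-05). hsp90b1, the ER form of HSP90, rose from 282 and 203 to 1018 and 894 CPM (1.87, SE 0.19, edgeR adjusted p = 2.92e-05). The groups did not overlap for either gene, and hspa13, a minor HSP70 of this compartment, rose as well (0.60). dnajb11, a J-domain partner of BiP, rose from 39.8 and 22.3 to 196 and 175 CPM, the largest called increase of any member in batch 1 (2.47, SE 0.26, edgeR adjusted p = 0.00023). The disulfide reductase dnajc10 rose by a log2 of 1.93, dnajc3b by 1.35, dnajc1 by 1.07 and dnajc3a by 0.95. In all, 8 of 14 ER members rose in batch 1, against 32.5% of all genes, and 3 (dnajb12b, dnajb14 and dnajc18) fell, against 33%.

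In fibroblasts 7 of the 14 ER members rose and 1, dnajc18, fell, against 27.8% and 26.2% of all genes. dnajb11 rose from 51.7 and 83.9 to 394 and 422 CPM (2.68, SE 0.24, edgeR adjusted p = 5.3e-05) and hsp90b1 from 611 and 844 to 1669 and 2285 CPM (1.54, SE 0.22, edgeR adjusted p = 0.000391). hspa5 was not called, at 4617 and 7417 CPM before and 5749 and 7509 CPM after (0.23, SE 0.26, edgeR adjusted p = 0.473). Without replicate 2 at 0 dpa it was called higher (0.60). It was already high in the uninjured fibroblasts, above the 656 and 594 CPM of the whole fins of the batch (3.26, SE 0.27, edgeR adjusted p = 0.000312). dnajb9b, a J-domain protein of ER-associated degradation, rose in fibroblasts from 7.20 and 9.06 to 42.5 and 38.0 CPM (2.41, SE 0.19, edgeR adjusted p = 9.7e-06) and was not called in batch 1 (-0.35, SE 0.21, edgeR adjusted p = 0.178). Its paralogue dnajb9a did not do so in either (-0.44 and 0.02, not called). dnajc3a, a BiP co-chaperone, rose by a log2 of 2.03, dnajc3b by 1.88, dnajc10 by 1.63 and dnajc1 by 1.22.

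In uninjured fibroblasts 2 of the 11 ER J-domain genes were higher than in whole fins of the batch and 3 were lower, neither share above the 31.9% and 31% of all genes. dnajb9a (0.95) and dnajb12b (0.85) were higher. dnajb9b (-1.38), dnajc3b (-1.62) and dnajc10 (-0.68) were lower, and dnajb11 was not called (-0.38), though it was called lower without fibroblast replicate 2 (-0.76). With batch 1 whole fins as controls dnajb11 was at 1.05, dnajb9b at 0.10 and dnajc3b, no longer called, at -0.42. Members of the unfolded protein response list were higher in 13 of 23 tested cases and lower in 6 (all genes 31.9% and 31%; list median 0.64), among them the stress factor ddit3 (5.24) and the regulator xbp1 (3.78). At 4 against 0 dpa that list had 7 higher and 9 lower of 23 in fibroblasts, against 27.8% and 26.2% of all genes, and 4 higher and 10 lower of 23 in batch 1, against 32.5% and 33%.

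**Figure D3:**
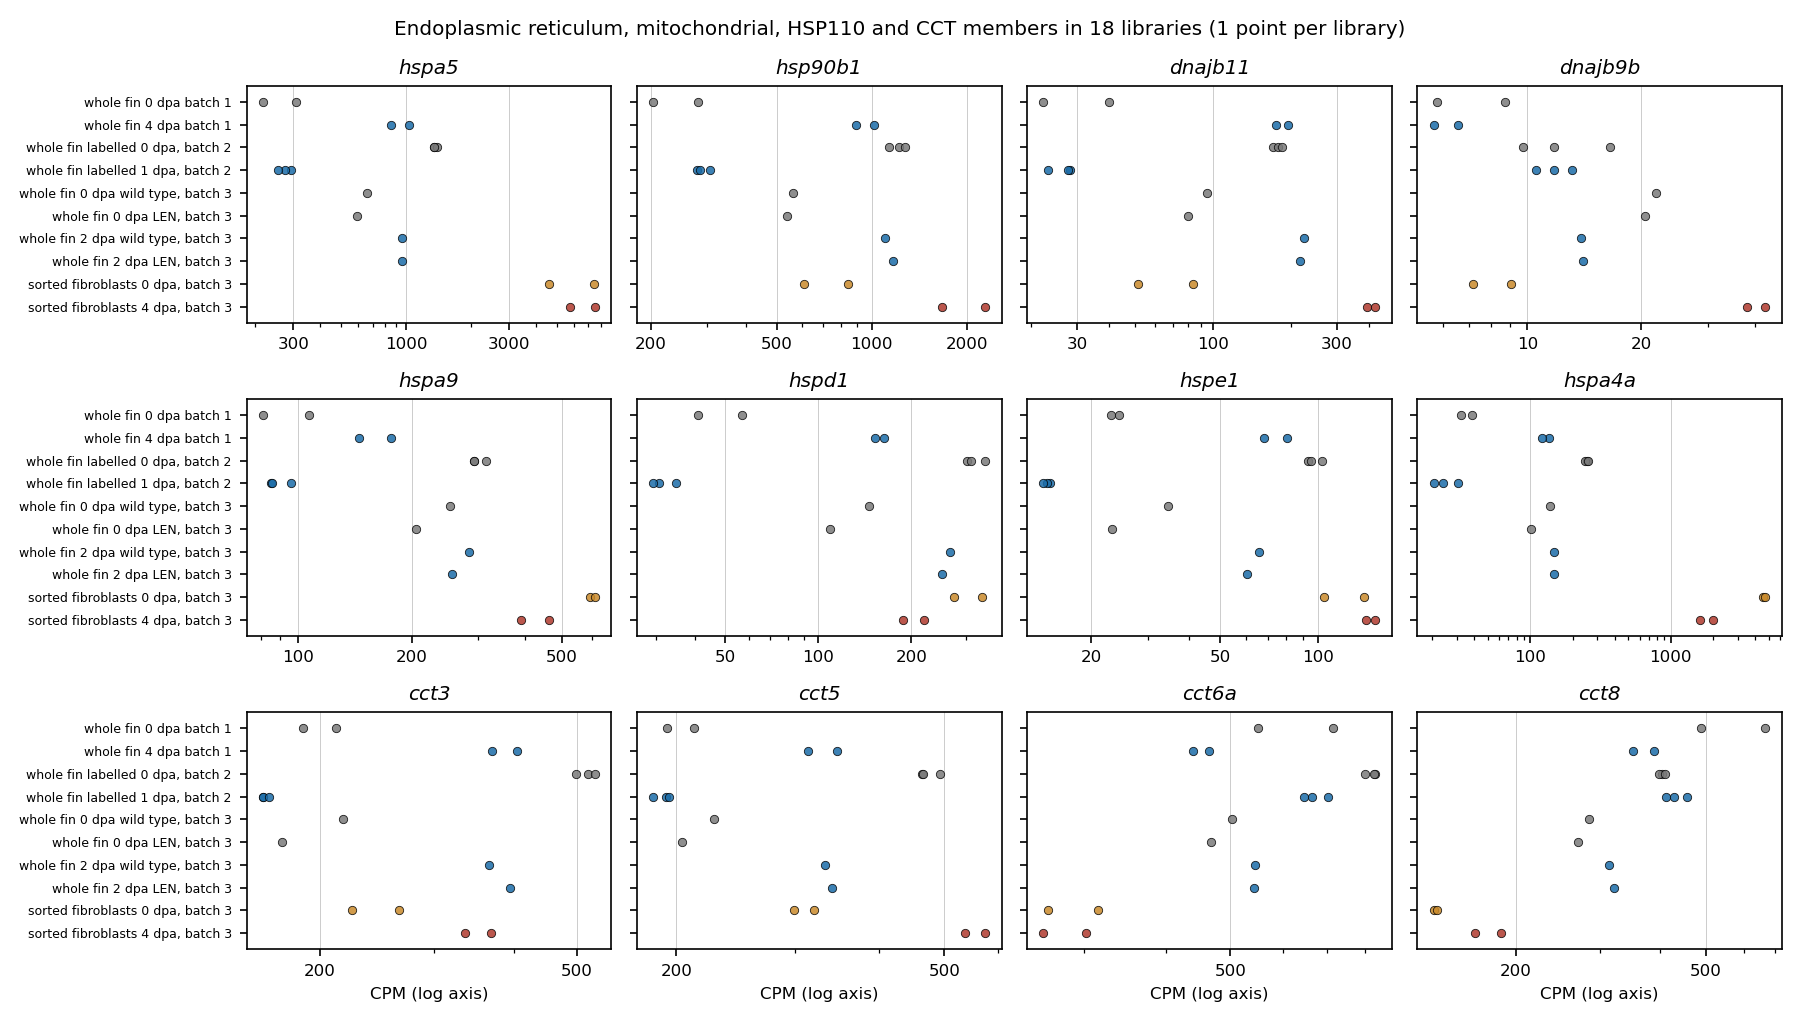
CPM (log axis) of 12 ER, mitochondrial, HSP110 and CCT members, 1 point per library, coloured as uninjured or labelled 0 dpa whole fins (grey), regenerating or labelled 1 dpa whole fins (blue) and fibroblasts at 0 (orange) and 4 dpa (red). hsp90b1 and dnajb11 are higher at 2 or 4 dpa than at 0 dpa in batches 1 and 3 and in fibroblasts, and in batch 2 they are higher in the libraries labelled 0 dpa.

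All 3 mitochondrial chaperones rose by 4 dpa in batch 1 whole fins, against 32.5% of all genes. With TMM scaling and all libraries none was called higher in fibroblasts, against 27.8% of all genes. hspd1, the chaperonin of the matrix, was at 56.8 and 40.8 CPM in batch 1 at 0 dpa and 164 and 153 CPM at 4 dpa (1.59, SE 0.16, edgeR adjusted p = 2.56e-05). Its cap hspe1, the neighbouring gene in the RefSeq table, was at 23.1 and 24.4 CPM and then 68.3 and 80.7 CPM (1.55, SE 0.13, edgeR adjusted p = 1.05e-05). hspa9, the matrix HSP70 that pulls in imported proteins, was at 107 and 81.0 CPM and then 177 and 146 CPM (0.67, SE 0.15, edgeR adjusted p = 0.00389). No group overlapped for any of these. In fibroblasts hspd1 fell from 275 and 338 to 189 and 220 CPM (-0.49, SE 0.16, edgeR adjusted p = 0.027) and hspa9 from 595 and 611 to 390 and 462 CPM (-0.41, SE 0.15, edgeR adjusted p = 0.0467), while hspe1 was not called (0.36, SE 0.17, edgeR adjusted p = 0.102). Both falls were lost without either 4 dpa library and under scaling by library size only. The fall of hspd1 was also lost without replicate 2 at 0 dpa and that of hspa9 with DESeq2 size factors. hspe1 was called higher under scaling by library size only (0.68) and without replicate 2 at 0 dpa (0.56). All 3 were higher in uninjured fibroblasts than in whole fins (1.26, 2.08 and 1.40), against 31.9% of all genes.

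Of the 6 mitochondrial J-domain genes, 5 were tested. dnajc11, part of a complex that shapes the inner membrane, rose by 4 dpa in batch 1 (0.71) and in fibroblasts (0.56). dnajc15, a subunit at the import motor, did the same (0.58 and 0.73). dnaja3a, a partner of hspa9, fell in batch 1 (-0.45) and was not called in fibroblasts (-0.32). dnajc19 and dnajc28 were not called in either.

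The CCT ring did not move as 1 unit in batch 1, although its subunits are used in equal numbers. cct3 rose from 188 and 212 to 404 and 370 CPM (0.84, SE 0.14, edgeR adjusted p = 0.000486), and cct5 (0.60) and cct7 (0.54) rose with it. cct8 fell from 488 and 667 to 390 and 351 CPM (-0.75, SE 0.18, edgeR adjusted p = 0.00512) and cct6a from 550 and 716 to 465 and 439 CPM (-0.59, SE 0.17, edgeR adjusted p = 0.0131). Under scaling by library size only both falls lost their call (-0.28 and -0.12) and tcp1 became higher (0.74, against 0.27 with TMM). Without either 4 dpa library cct6a and cct7 were not called, and without replicate 2 at 4 dpa neither was cct8. cct4 was not called (-0.28), with uninjured libraries at 307 and 473 CPM around the 366 and 328 CPM of 4 dpa. Without replicate 1 at 0 dpa cct4 was called lower (-0.53), and without replicate 2 at 0 dpa tcp1 was called higher (0.50).

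In fibroblasts cct3 (0.62), cct5 (0.94) and cct8 (0.46) of the 7 ring genes tested rose by 4 dpa and none fell. Of all genes there, 27.8% rose and 26.2% fell. The calls of cct3 and cct8 were lost without either 4 dpa library. cct8 ran the other way in fibroblasts and batch 1, and the difference of responses was called (1.25, SE 0.24, edgeR adjusted p = 0.00254). In batch 3 whole fins at 2 dpa 5 of 7 ring genes were higher, against 31.2% of all genes. These were cct3 (0.94), cct7 (0.95), cct4 (0.64), tcp1 (0.62) and cct5 (0.62). cct6a and cct8 were not called there (0.14 and 0.17). Against uninjured whole fins, uninjured fibroblasts were higher in cct4 (1.70), cct7 (1.21) and tcp1 (0.99) and lower in cct8 (-1.04) and cct6a (-0.75). cct5 was called higher at 0.52, not so without either whole-fin library, and stood at -0.032 under scaling by library size only.

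Of the heat shock factors hsf1 and hsf2 were tested. hsf1, the main activator of inducible chaperone genes, was at 17.0 to 26.2 CPM in whole fins, 23.9 and 16.0 CPM in uninjured fibroblasts and 15.7 and 14.9 CPM at 4 dpa. It was not called between uninjured fibroblasts and whole fins (-0.28, SE 0.25, edgeR adjusted p = 0.361), but was called lower under scaling by library size only (-0.82). In batch 1 it fell (-0.47, SE 0.12, edgeR adjusted p = 0.00755), a call lost without either 4 dpa library and under scaling by library size only. hsf2, a related factor active in development, was at 6.29 and 7.31 CPM in uninjured whole fins of batch 3 and 51.2 and 55.9 CPM in uninjured fibroblasts (2.97, SE 0.18, edgeR adjusted p = 0.000121). It rose in batch 1 from 16.0 and 24.9 to 36.7 and 34.1 CPM (0.68, SE 0.20, edgeR adjusted p = 0.015) and in batch 3 whole fins to 16.4 and 14.7 CPM at 2 dpa (1.17, SE 0.16, edgeR adjusted p = 0.000102). In fibroblasts its change was not called (0.10).

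Other co-chaperones had courses of their own. bag5 and bag6 rose by 4 dpa in batch 1 (0.49 and 0.37) and in fibroblasts (1.17 and 0.81), against the direction of bag3, and the calls of bag6 were lost without either 4 dpa library of its tissue. bag1, an exchange factor for HSP70, rose in fibroblasts (0.74) and was not called in batch 1 (0.23), while bag2, which restrains the ubiquitin ligase that tags HSP70 clients, rose in batch 1 (1.80) and was not called in fibroblasts (0.36). bag6 was lower in uninjured fibroblasts than in whole fins (-2.19, SE 0.27, edgeR adjusted p = 0.00116). dnajc9, a histone chaperone, rose from 16.1 and 14.2 to 37.5 and 37.7 CPM in batch 1 (1.21) and from 10.8 and 12.1 to 36.5 and 34.8 CPM in fibroblasts (1.74). dnajc2, which binds ribosomes, rose in both (1.09 and 0.80). dnajc21, needed for ribosome assembly, rose in batch 1 (1.23) and not in fibroblasts (-0.10). Cell cycle genes moved with these: 18 of 18 were higher at 4 dpa in batch 1 (median 3.20) and 17 of 18 in fibroblasts (3.44). Of all genes, 32.5% and 27.8% were higher. Summed, they were at 462 and 397 CPM and then 2180 and 1942 CPM in batch 1. In fibroblasts they were at 334 and 341 CPM and then 1340 and 1505 CPM, and their part in the chaperone changes was not tested. The cysteine string protein gene dnajc5gb (-0.88), dnajc18 (-0.87) and dnajc4 (-0.79) fell in batch 1 and in fibroblasts (-0.91, -1.22 and -0.79). Their calls in batch 1 were lost under scaling by library size only.

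That scaling moved all genes of batch 1 together. With TMM, 49.7% of all calls were higher. With library size only it was 72.7%, the median of all genes moved to 0.44, and the members gave 46 higher and 3 lower calls. In fibroblasts the share of higher calls was 51.5% with TMM and 67.7% with library size only, with the median of all genes at 0.32. Without replicate 1 of the fibroblasts at 4 dpa, fewer members and fewer of all genes were called higher there. The members' median was then -0.061. In batch 1, without either of the 4 dpa libraries, fewer members and fewer of all genes were called lower.

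The responses of fibroblasts and whole fins were tested against each other in 1 fit of 4 groups. Of 80 members 24 were called below 0 and 6 above it, against 17.4% and 18.9% of all genes. The most negative differences were those of hspa12b (-3.52, SE 0.22), dnajb4 (-3.15, SE 0.25), hspb7 (-3.13, SE 0.37), hspb6 (-3.13, SE 0.50) and hspa4a (-2.97, SE 0.25). hsp70.1 (-2.29, SE 0.40), dnajb1b (-2.12, SE 0.28), hsp90aa1.2 (-1.96, SE 0.31) and bag3 (-1.57, SE 0.21) were also called. All 3 mitochondrial chaperones had lower responses in fibroblasts: hspd1 (-2.05, SE 0.25, edgeR adjusted p = 0.00014), hspe1 (-1.15) and hspa9 (-1.04). hspa5 differed too (-1.46, SE 0.37, edgeR adjusted p = 0.011), while hsp90b1 (-0.30) and dnajb11 (0.25) did not reach a call. Higher responses in fibroblasts were called for dnajb9b (2.79, SE 0.30, edgeR adjusted p = 7.15e-05), hspbap1 (1.70), cct8 (1.25), dnajc3a (1.12), dnajc9 (0.57) and dnajc3b (0.56). The calls of dnajc3b and dnajc9 were lost without any 1 of the 8 libraries, that of hspa5 without replicate 1 of the fibroblasts at 4 dpa. Tissue, batch, transgene, sorting, tamoxifen and the earlier clip cannot be told apart here, nor can dissociation if whole fins were not dissociated. In this difference 52.0% of all calls were higher with TMM and 38.9% with library size only.

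**Figure D4:**
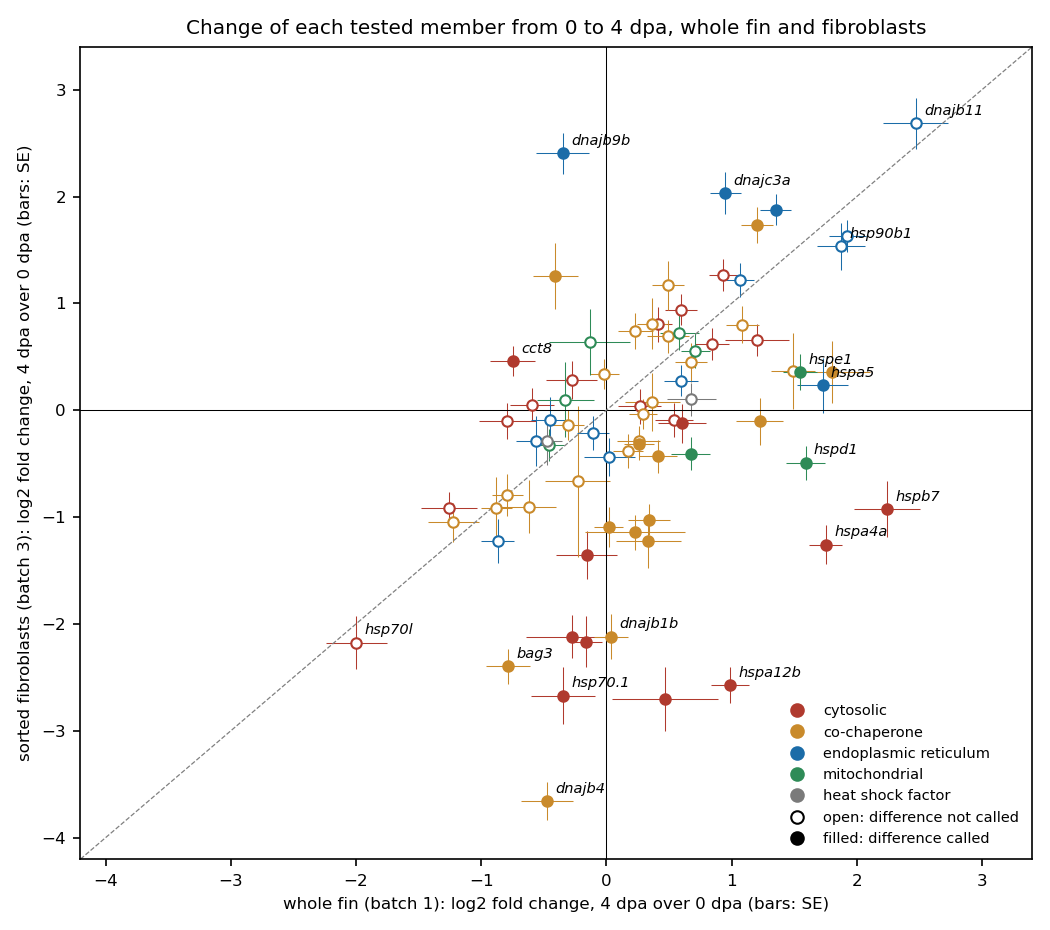
Log2 fold change from 0 to 4 dpa of the 77 members tested in both batch 1 whole fins (horizontal axis) and sorted fibroblasts (vertical axis), with SE bars, coloured by class. Filled points are members whose 2 responses differed by the edgeR test, and the dashed line marks equal responses. hspa4a, hspa12b, hspb7 and hspd1 lie at lower right, higher in whole fins and lower in fibroblasts, and dnajb9b lies at upper left.

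Epidermal markers moved with both responses. In batch 1, 11 of 13 fell (summed level 168615 and 211351 CPM at 0 dpa and 60954 and 53757 CPM at 4 dpa) and 9 of 10 fibroblast markers rose (summed level 4607 and 4710 CPM, then 42015 and 36179 CPM). Of all genes in batch 1, 33% fell and 32.5% rose. In sorted fibroblasts 11 of 13 epidermal markers fell, against 26.2% of all genes, and none of the 13 is at 0. The part of these shifts in the chaperone changes was not tested.

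Chaperones outside the symbol rule were described from a list of 52 partner genes, 45 of them counted and 42 or 43 tested per comparison. In batch 1, 27 were higher and 6 lower at 4 dpa (median 0.72), against 32.5% and 33% of all genes. In fibroblasts 21 were higher and 9 lower (median 0.44), against 27.8% and 26.2%. ER partners gave the largest increases. The ER exchange factor hyou1 rose from 64.1 and 39.1 to 333 and 281 CPM in batch 1 (2.47, SE 0.23) and from 119 and 196 to 519 and 690 CPM in fibroblasts (2.03, SE 0.26). manf, a secreted ER stress protein, rose by 2.57 and 3.14, and creld2 by 2.51 and 2.93. The collagen chaperone serpinh1b rose in batch 1 (3.70, SE 0.14, edgeR adjusted p = 2.13e-07) but was not called in fibroblasts (0.02, SE 0.24, edgeR adjusted p = 0.947), where it was at 2923 and 4359 CPM already at 0 dpa.

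Cytosolic HSP90 partners on that list did not move together. ahsa1a, which speeds the ATPase of HSP90, was at 122 and 171 CPM in uninjured fibroblasts, 43.1 and 48.7 CPM at 4 dpa and 0.559 and 0.910 CPM in uninjured whole fins of the batch (7.61, SE 0.34). In batch 1 whole fins it was at 12.1 and 13.1 CPM at 0 dpa. chordc1a was at 188 and 245 CPM, then 104 and 112 CPM, against 5.73 and 4.08 CPM (5.47, SE 0.25). The HSP70 to HSP90 adaptor stip1 was higher in uninjured fibroblasts by 2.95 and its change to 4 dpa was not called (-0.36). ahsa1a, ahsa1b and chordc1a fell in fibroblasts by 4 dpa (-1.58, -1.07 and -0.90), while chordc1b, ppid and ptges3b rose (0.92, 2.15 and 0.52). In uninjured fibroblasts chordc1b (-0.47) and ppid (-1.12) were lower than in whole fins. These partners were named after their values were seen. Over the whole list 16 of 43 were higher in uninjured fibroblasts and 15 lower, against 31.9% and 31% of all genes.

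In batch 2 the members were mostly lower in the libraries labelled 1 dpa. hspd1 was at 303, 311 and 346 CPM in those labelled 0 dpa and 30.7, 34.8 and 29.3 CPM in those labelled 1 dpa (-3.28, SE 0.08, edgeR adjusted p = 3.54e-09). hspe1 was at 93.1, 95.5 and 103 CPM and then 14.9, 14.6 and 14.3 CPM (-2.67, SE 0.06), and hspa4a at 254, 245 and 258 CPM and then 23.7, 30.4 and 20.5 CPM (-3.28, SE 0.14). The labelled groups did not overlap for any of these. All 3 ER chaperones were lower in the libraries labelled 1 dpa, hspa5 (-2.25), hsp90b1 (-1.99) and hspa13 (-1.06), and so were dnajb11 (-2.69), dnajc25 (-2.33) and dnajc21 (-2.57). Of 7 ring genes 6 were lower, from cct6a at -0.22 to cct3 at -1.59, against 39.9% of all genes. The remaining gene, cct8, was higher by 0.16, a call lost in 9 of the 13 alternatives run. bag3 was higher, at 4.01, 3.96 and 4.49 CPM labelled 0 dpa and 12.1, 12.5 and 12.2 CPM labelled 1 dpa (1.62, SE 0.09, edgeR adjusted p = 2.72e-07). So were hspa12b (1.85), dnajc4 (1.17), hsf2 (0.79), hspb1 (0.61) and hsp90ab1 (0.50), while hsp70.1, at 20.2 to 28.0 CPM and then 4.47 to 5.0 CPM, was lower (-2.21).

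If the groups are taken as the deposited names give them, every sign in batch 2 turns, with 47 members higher and 17 lower at 1 dpa. Other lists moved with the members: all 18 cell cycle genes were lower in the libraries labelled 1 dpa (median -2.78) and 32 of 42 partner chaperones were lower. Of all genes, 39.9% were lower and 42% higher there. Leukocyte markers were higher in 8 of 9, with summed levels of 931, 703 and 723 CPM labelled 0 dpa and 7445, 7220 and 7993 CPM labelled 1 dpa. In whole fins of batches 1 and 3 they summed to 4438, 5674, 3511 and 5088 CPM at 0 dpa. They summed to 1549 and 1606 CPM at 4 dpa and 874 and 1059 CPM at 2 dpa. Cell cycle genes summed to 1802, 1922 and 2053 CPM labelled 0 dpa and 373, 258 and 341 CPM labelled 1 dpa. In batch 1 these were at 462 and 397 CPM at 0 dpa and 2180 and 1942 CPM at 4 dpa. Osteoblast markers summed to 107, 106 and 137 CPM labelled 0 dpa and 373, 378 and 419 CPM labelled 1 dpa. In batch 1 they were at 616 and 485 CPM at 0 dpa and 15791 and 13854 CPM at 4 dpa. Which naming of the groups is right was not tested, nor was the part of these lists in the chaperone differences.

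Whole fins of batch 3 at 2 dpa rested on 1 library per genotype and time. hsp90b1 was at 564 and 537 CPM at 0 dpa (wild type, then LEN deletion) and 1100 and 1170 CPM at 2 dpa (1.02, SE 0.10, edgeR adjusted p = 9.55e-06). dnajb11 went from 94.9 and 80.6 to 224 and 217 CPM (1.32), hspe1 from 34.4 and 23.1 to 66.1 and 60.6 CPM (1.14) and bag5 from 10.0 and 11.5 to 33.9 and 31.1 CPM (1.57). All 3 ER chaperones and hspd1 (1.01) were higher at 2 dpa. Of the cytosolic class 10 of 23 tested were higher and 5 lower, against 31.2% and 31.1% of all genes. hsp90aa1.2 went from 29.8 and 23.0 to 14.9 and 11.3 CPM (-1.03, SE 0.13, edgeR adjusted p = 4.31e-05), and hsp70l (-1.13), dnajb4 (-1.14), bag3 (-0.90) and hspb1 (-0.81) were lower as well. hsp90aa1.1 (-0.46) and hsp70.1 (-0.05) were not called. hsp90ab1 (-0.41), dnajc4 (-0.65) and dnajb9b (-0.62) were also lower. The partner list gave 30 higher and 6 lower of 42 and the cell cycle list 18 of 18 higher, against the same 31.2% and 31.1% of all genes.

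LEN deletion left no called member. The largest difference in size was -0.46 (hspb11), and the smallest adjusted p was 0.405 by edgeR. At an unadjusted p under 0.05, 3 of the 78 members tested passed by edgeR and 0 by DESeq2. The share of all genes at that threshold was not computed. hsp70.1 was at 5.55 and 5.04 CPM in wild type (0, then 2 dpa) and 3.73 and 3.96 CPM in LEN deletion (-0.44, SE 0.21). hspe1 was at 34.4 and 66.1 CPM in wild type and 23.1 and 60.6 CPM in LEN deletion (-0.32, SE 0.12). A p above the threshold does not show that the genotypes are alike.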

How the data were processed

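RNA-seq counts per gene were deposited by the authors for 18 libraries, as whole-number counts of 14781 genes with no normalization. Per the submitters' processing notes, the tools included Trim Galore, TopHat2 2.1.1 and HTSeq 1.6.1 with the build danRer10. The kit was stranded per the labels' protocols. Neither the annotation nor the strand setting of the counting is given in the sources used here. Antisense and overlapping genes are therefore uncertain. The 5 rows that name no gene were left out, and reads in no feature were 26.5% to 39.0%. The 18 accessibility samples were not analysed here.

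Each comparison was fitted on its own libraries with edgeR 4.0.16 in R 4.3.3 (filterByExpr, TMM, robust quasi-likelihood F test, two-sided), with Benjamini-Hochberg adjustment over all genes tested. SE is the size of the log2 fold change divided by the square root of F. CPM used TMM factors over the 18 libraries, while each fit scaled its own libraries, so ratios of CPM can differ from the fitted fold changes. The p-values measure only the spread between these pools. Alternatives were DESeq2 1.42.0 (its size factors or its test), library size only, no expression filter, members left out of the scaling, a replicate block, each library left out and other controls.

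Members and lists were chosen with earlier results of these data known. Genes always named were the main members of each class. For each comparison the 6 largest increases and decreases were added, taken from called members whose groups did not overlap and whose mean level was 5 CPM or more. Further members were named after their values were seen. Symbols were matched to RefSeq (GRCz12tu): 84 members by current symbol and 3 by a synonym. No sequences or gene lengths of the files' build were used here.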

Additional observations from a re-analysis of the deposited data

Results flagged for a closer look

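For 30 of the 80 members tested, the change from 0 to 4 dpa differed between sorted fibroblasts and batch 1 whole fins by a contrast in 1 edgeR fit of both tissues. That total is near the share of all genes called in this contrast. The response in fibroblasts was higher for 6 members and lower for 24, against 18.9% and 17.4% of all genes. Tissue, batch, transgene, sorting, tamoxifen and the earlier clip cannot be told apart in this contrast, and no explanation was tested. Whether dissociation differed too is not settled by the protocols.

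Positive differences included 2.79 on the log2 scale for dnajb9b, 1.25 for cct8, 1.12 for dnajc3a, 0.57 for dnajc9 and 0.56 for dnajc3b. Among the negative ones were -3.52 for hspa12b, -3.15 for dnajb4, -2.97 for hspa4a, -2.29 for hsp70.1, -2.12 for dnajb1b and -2.05 for hspd1. In fibroblasts dnajb9b was at 7.20 and 9.06 CPM at 0 dpa and 42.5 and 38.0 CPM at 4 dpa. Batch 1 whole fins had 8.73 and 5.77 CPM at 0 dpa and 6.55 and 5.66 CPM at 4 dpa. hspa4a went from 4529 and 4730 to 1617 and 2014 CPM in fibroblasts and from 38.8 and 31.9 to 135 and 121 CPM in whole fins.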

How the results depend on the processing

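Of 164 counts of called members recomputed under an alternative, 156 stayed within 1.5 times the reported count. Of 3642 values of single members, 3423 either kept a call in the same direction or stayed uncalled, whatever their direction. A call was lost in 147 and gained in 67, and 5 turned direction where a call was involved. Turns of direction among values that stayed uncalled were not counted. Scaling by library size only gave 3 lower members in batch 1 whole fins and 28 in uninjured fibroblasts against whole fins. In the latter comparison it turned hspa8 to -0.029, bag1 to -0.43 and cct5 to -0.032. With whole fins of batch 1 as its controls dnajb11 was at 1.05 and dnajb9b at 0.10. Exchanging the groups of batch 2 gave 47 higher and 17 lower members. The cause of the other shifts was not tested.

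Leaving out each library in turn gave ranges of 27 to 39 higher and 8 to 15 lower members in batch 1, and 14 to 16 and 45 to 46 in batch 2. It gave 13 to 26 and 19 to 31 in fibroblasts, and 36 to 44 and 10 to 18 in uninjured fibroblasts against whole fins. At 4 dpa the ranges were 42 to 44 and 17 to 20, and for the difference of responses 4 to 7 and 18 to 30. A lone library was then assumed to vary like the other group. The number of all genes called also changed with each library left out.

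With the replicate block, higher and lower members numbered 34 and 15 in batch 1, 14 and 45 in batch 2, and 22 and 28 in fibroblasts. At 4 dpa they were 44 and 20, and for the difference of responses 5 and 23. Libraries sharing a replicate number did not deviate together in every pair. Correlations of deviations were 0.024 in batch 1, 0.079 in fibroblasts, and -0.117, -0.091 and 0.068 in batch 2. With 2 libraries per group the deviations mirror each other, so batch 1 and the fibroblasts give 1 value each. Whether the replicate numbers pair the samples is therefore not settled.

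For LEN deletion against wild type, no expression filter gave 81 higher and 82 lower genes over all genes, against 26 and 22. Groups of 2 libraries limit every comparison outside batch 2. The search of promoter motifs was not run.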
